A study of Mus musculus with 8 samples.

Results

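The genes described here belong to the liver X receptor (LXR) pathway and to cholesterol efflux, measured here by RNA-seq of mouse bone marrow-derived macrophages. They are the rows of the deposited table named Nr1h2, Nr1h3, Abca1, Abcg1, Apoe, Mylip, Lpcat3, Abca9, Pltp and Pparg, 10 of 23366 genes, chosen by name. All 10 passed the filter on low values, which 11919 genes passed. The cells were C57BL/6 macrophages at passage 1, either wild type or with the Lsd1SA/SA knock-in, in which, per the labels, the histone demethylase LSD1 is defective in phosphorylation. All were kept without serum for 24 h, which the controls share, and were then left untreated or given lipopolysaccharide (LPS, from the outer membrane of Gram-negative bacteria) for 2 h at a labelled 1 mg/ml. No source used here gives the mice's age or number or says that replicates were separate animals or cultures. The spread that the p-values rest on is that between libraries and may be technical. Each of the 4 groups had 2 libraries. Levels are TMM-scaled CPM, a normalised read count whose scaling corrects for library size and composition. Tests are limma on log2(value + 1), which understates changes of low genes, and a call means a Benjamini-Hochberg adjusted p, over all genes tested, under 0.05.

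LXRs are nuclear receptors that bind oxysterols, the oxidised forms of cholesterol, and act on DNA as heterodimers with retinoid X receptors. In macrophages loaded with cholesterol they switch on genes that move cholesterol out of the cell, such as the transporters ABCA1 and ABCG1 and the acceptor apolipoprotein E, and genes that reshape lipids and limit uptake. PPAR gamma, a fatty acid sensor of the same receptor family, is known to raise the level of LXR alpha in macrophages, and inflammatory signals and LXRs are known to restrain parts of each other's programmes.

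Abca1's promoter is shown first because the gene's level rose with LPS in wild type but was lowest in the group labelled knock-in LPS. That group also differed from the others in sex-linked RNA and cell markers, as given below, so the contrast cannot be credited to genotype. The promoter of Abca9 is shown because that gene's levels had the widest relative range among the 10 genes. RefSeq windows of 300 bases (250 before the start site and 50 after, build GRCm38.p6) were found for 9 of the 10 genes, 14 windows in all. Abcg1 had none. Below are the 250 bases before the start site, read 5′ to 3′ on the gene's own strand, for Abca1 at chr4:53159896-53160145 and Abca9 at chr11:110168154-110168403, both on the minus strand. Capitals mark a match, with at most 3 mismatches, to a DR4 element, the paired repeat that LXR and its partner bind. The Abca9 window held no match that close.
Abca1: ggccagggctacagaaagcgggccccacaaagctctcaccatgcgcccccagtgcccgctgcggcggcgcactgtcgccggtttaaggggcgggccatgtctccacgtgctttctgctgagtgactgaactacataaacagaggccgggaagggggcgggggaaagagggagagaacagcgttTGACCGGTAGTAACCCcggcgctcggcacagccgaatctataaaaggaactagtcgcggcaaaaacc
Abca9: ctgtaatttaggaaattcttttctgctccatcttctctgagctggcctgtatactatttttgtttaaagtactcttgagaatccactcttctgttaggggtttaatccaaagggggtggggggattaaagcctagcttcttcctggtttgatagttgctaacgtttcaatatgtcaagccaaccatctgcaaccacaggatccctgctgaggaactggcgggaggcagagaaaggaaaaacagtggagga
Both strands of every window were searched for the DR4 letters (AGGTCA, any 4 bases, AGGTCA) with at most 2 mismatches in the fixed letters, and for the kappa B letters (GGG, any 2 bases, TTTCC) with none. Neither was found in the 14 windows, while 3.02% and 1.63% of 32817 RefSeq promoters of the same length held them. With 3 mismatches, counted after the first search gave none, the Abca1 window held 1 match on the opposite strand, from base -67 to base -52 before the start site, and 1 Pparg window held a match that runs across its start. Of all promoters, 21.9% held a match that loose. A match describes the letters only, and the RNA data do not measure binding.

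The libraries held 40379258 to 55595160 reads, and the members had between 217 reads (Abca9) and 1065831 reads (Apoe) in any library. Macrophage markers were high in all libraries, with a summed level over 9 markers of 13961 to 17962 in 6 libraries and 12235 and 12885 in those labelled knock-in LPS. Against the untreated knock-in 6 of the 9 were lower there and 1, Fcgr1, was higher (287 to 913). The libraries labelled knock-in LPS stood apart in sex-linked RNA. Xist was at 0.212 and 0.366 there and at 315 to 437 in the other 6 libraries, and Ddx3y, from the Y chromosome, was at 27.3 and 27.4 there and at most 0.0503 elsewhere. The same 2 libraries differed in markers of other cells. The summed level of 12 stromal markers was 94.7 and 96.9 in them and 31.0 to 38.9 elsewhere, with 9 of 10 tested higher than in the untreated knock-in, of which Dcn and Postn passed the filter only through those libraries. That of 8 dendritic cell markers, mostly Itgax, was 5.52 and 5.96 against 36.5 to 51.9. Of 7 adipocyte markers, Plin1, Cidec and Lep were at 0 in every library and the sum was at most 0.324. The 9 neutrophil markers summed to 372 to 385 in the untreated groups, 780.0 and 799 in wild type with LPS, and 512 and 522 in the libraries labelled knock-in LPS. The 8 B and T cell markers summed to 7.37 and 6.62 in the latter and 9.87 to 12.5 elsewhere, and the 8 erythroid and megakaryocyte markers to 160.5 and 169 against 179.8 to 245. The 8 inflammatory check genes all rose with LPS in wild type while 4 rose and 1, Nfkbiz, fell (-0.58, limma adjusted p = 4.66e-08) in the libraries labelled knock-in LPS, where the mean level of Tnf went from 26.6 to 48.6 against 27.1 to 3977 in wild type. Il6, 1 of the 8, passed the filter only through wild type with LPS (17.8 and 20.8), so its call is no support. Of 7 interferon response genes, 5 rose and 1 fell in wild type and 7 rose in the libraries labelled knock-in LPS. Of all genes tested, 26.8% were called higher and 30.7% lower with LPS in wild type, and 28.5% and 28.3% in the knock-in. Every value below that uses the libraries labelled knock-in LPS contrasts these differences together with the genotype and the treatment, and they cannot be told apart. In such bulk samples, fewer cells of a type and less RNA per cell cannot be told apart either.

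Among the receptors, Nr1h3, which encodes LXR alpha, rose with LPS in both genotypes. In untreated wild type its 2 libraries stood at 96.2 and 93.6, and with LPS at 155 and 166. The untreated knock-in libraries were at 98.8 and 103, and the libraries labelled knock-in LPS at 140.0 and 139. No 2 groups overlapped, and wild type with LPS was highest. The log2 change was 0.75 in wild type (SE 0.0506, limma adjusted p = 3.74e-12), a 1.69-fold difference of means, and 0.46 in the knock-in (SE 0.0506, limma adjusted p = 3.81e-08), or 1.38-fold. After quantile normalization the wild-type change was 0.45 (limma adjusted p = 1.03e-07). Nr1h2, which encodes the widely expressed LXR beta, moved less. It was at 76.3 and 73.6 in untreated wild type, 87.7 and 89.3 in wild type with LPS, 79.9 and 85.3 in the untreated knock-in, and 87.4 and 90.4 in the libraries labelled knock-in LPS. The 2 LPS groups overlapped each other and lay above both untreated groups. Its increase passed in wild type (0.24, limma adjusted p = 5.31e-04) but missed in the knock-in (0.11, 95% interval -0.0045 to 0.22, limma adjusted p = 0.0954). The wild-type increase of Nr1h2 was 0.0083 after quantile normalization (limma adjusted p = 0.906).

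Pparg, the gene for PPAR gamma, was lowest in the libraries labelled knock-in LPS. It read 70.0 and 80.6 in untreated wild type, 61.4 and 64.8 in wild type with LPS, 68.1 and 68.0 in the untreated knock-in, and 37.6 and 40.1 in the libraries labelled knock-in LPS. The last group lay below the other 3, which were close to each other. Pparg fell by 0.25 on the log2 scale in wild type (limma adjusted p = 0.00189). In the knock-in the ratio of means was 0.571 (log2 change -0.79, limma adjusted p = 1.92e-10). Once untreated wild-type replicate 2 was left out, the wild-type change of -0.15 no longer passed (limma adjusted p = 0.0697), and quantile normalization gave -0.42 (limma adjusted p = 1.15e-05).

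**Figure D1:**
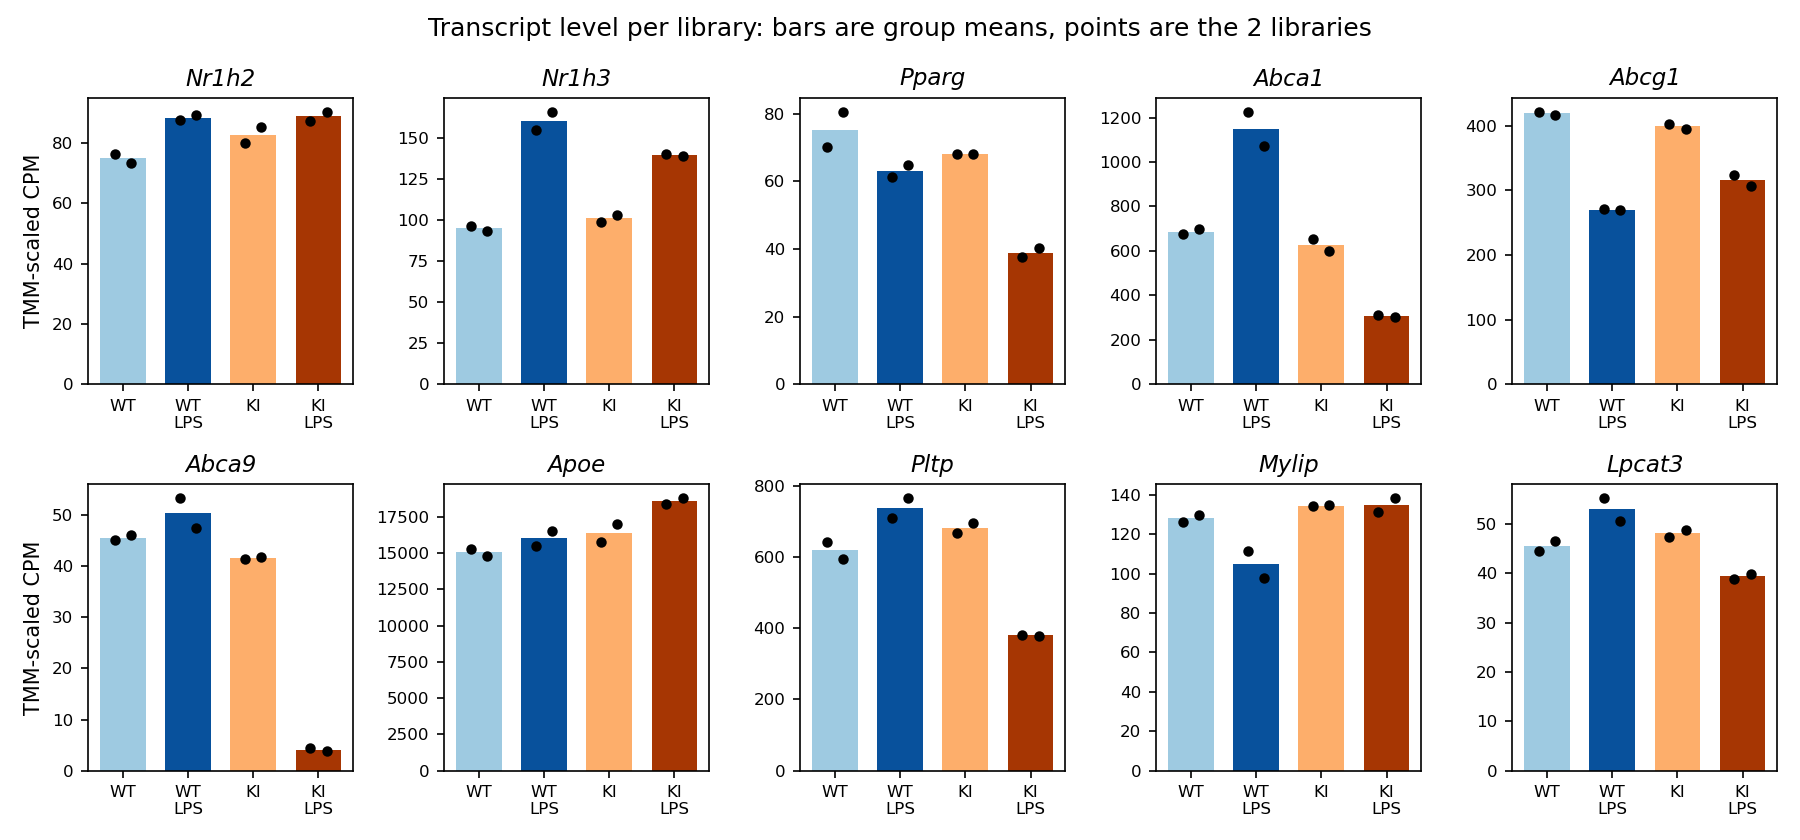
Level of each of the 10 genes (y axis, TMM-scaled CPM, starting at 0) in wild type (WT) and knock-in (KI) macrophages without and with LPS; bars are means and points the 2 libraries of a group. Abca1 is highest in wild type with LPS (1071 and 1227) and lowest in the libraries labelled knock-in LPS (304 and 314), while Abca9 drops there to 3.83 and 4.40.

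Of the transporters, Abca1, which hands cholesterol and phospholipid to lipid-poor apolipoprotein A-I, went in opposite directions. Its level was 674 and 698 in untreated wild type and 1227 and 1071 with LPS. The untreated knock-in libraries were at 652 and 599.7, and the libraries labelled knock-in LPS at 314 and 304. All 4 groups were separate. The log2 change was 0.74 in wild type (SE 0.0555, limma adjusted p = 2.88e-11, 1.68-fold by means) and -1.02 in the knock-in (SE 0.0555, limma adjusted p = 1.17e-13, a ratio of means of 0.493). The wild-type increase was 0.21 after quantile normalization (limma adjusted p = 0.00335).

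Abcg1, which moves cholesterol onto mature HDL particles, was lower with LPS in both genotypes. It stood at 422 and 417 in untreated wild type, 271 and 269.8 in wild type with LPS, 403 and 395 in the untreated knock-in, and 323 and 307 in the libraries labelled knock-in LPS. The 4 groups did not overlap, and wild type with LPS was lowest. Abcg1 fell by 0.63 in wild type (limma adjusted p = 9.27e-12) and by 0.34 in the knock-in (limma adjusted p = 7.49e-07). Quantile normalization gave -1.06 in wild type, still called. These 2 transporters, both textbook LXR targets, thus had opposite signs in wild type and the same sign in the knock-in.

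Abca9, a less studied member of the ABCA transporter family, had the widest relative range of the 10. Its level was 45.1 and 46.1 in untreated wild type, 53.4 and 47.6 in wild type with LPS, and 41.4 and 41.8 in the untreated knock-in. In the libraries labelled knock-in LPS it was 4.40 and 3.83, from 228 and 217 reads. The other 6 libraries lay within 41.4 to 53.4. The wild-type LPS difference missed the threshold (0.14, 95% interval -0.016 to 0.30, limma adjusted p = 0.118), whereas edgeR called it on recovered reads (0.18, adjusted p = 0.0301). In the knock-in, Abca9 fell by 3.06 (SE 0.0767, limma adjusted p = 4.27e-20, a ratio of means of 0.0988), rank 4 among the decreases of all 11919 genes. In the same libraries the dendritic cell marker sum was lower and the stromal sum higher, as given above, and their part in this result was not tested.

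Of the secreted lipid carriers, Apoe, which encodes apolipoprotein E, a cholesterol acceptor that macrophages secrete, varied little. The libraries read 15292 and 14787 in untreated wild type, 15479 and 16544 in wild type with LPS, 15788 and 17025 in the untreated knock-in, and 18349 and 18805 in the libraries labelled knock-in LPS. Wild type with LPS and the untreated knock-in overlapped, and the libraries labelled knock-in LPS were above the rest. The LPS change was 0.090 in wild type (95% interval -0.047 to 0.23, limma adjusted p = 0.258) and 0.18 in the knock-in (limma adjusted p = 0.0241). On recovered reads the wild-type increase was called by edgeR (0.12, adjusted p = 0.0146) and DESeq2 (0.12, adjusted p = 0.0220). The knock-in call was lost without untreated knock-in replicate 1 (limma adjusted p = 0.237), knock-in LPS replicate 1 (limma adjusted p = 0.0536) or knock-in LPS replicate 2 (limma adjusted p = 0.112), and under 2 further settings, no filter and quantile normalization. Across the alternatives its adjusted p ran from 2.72e-04 to 0.291.

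Pltp, the phospholipid transfer protein that remodels HDL, was at 643 and 594 in untreated wild type and 710.4 and 766 with LPS. The untreated knock-in libraries were at 668 and 695 and the libraries labelled knock-in LPS at 381 and 379. The last group was lowest, and no groups overlapped. In the knock-in Pltp fell by 0.84 (SE 0.0495, limma adjusted p = 5.01e-13). In wild type the change was 0.25 (limma adjusted p = 1.04e-04), but -0.24 after quantile normalization (limma adjusted p = 2.06e-04), so its direction there depends on the scaling. Exons of Pltp overlap those of the lysosomal protease gene Ctsa on the opposite strand over 495 bases in GENCODE vM21. The strand rule of the counting is not given in the sources used here, so reads there cannot be assigned with certainty. Ctsa itself was at 1536 in untreated wild type, 1549 in wild type with LPS, 1611 in the untreated knock-in and 1236 in the libraries labelled knock-in LPS (log2 change -0.38 in the knock-in, limma adjusted p = 2.09e-07).

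Mylip encodes the ubiquitin ligase IDOL, through which LXR limits the uptake of lipoprotein cholesterol. Its libraries were at 127 and 129.8 in untreated wild type, 112 and 97.7 in wild type with LPS, 135 and 135 in the untreated knock-in, and 132 and 139 in the libraries labelled knock-in LPS. Wild type with LPS was the low group. Mylip fell by 0.29 there (limma adjusted p = 9.71e-05), or -0.56 after quantile normalization, while the knock-in change was 0.0040 (95% interval -0.11 to 0.12, limma adjusted p = 0.960). Lpcat3, whose enzyme places polyunsaturated fatty acids in membrane phospholipids, was at 44.6 and 46.7 in untreated wild type and 55.3 and 50.6 with LPS. In the knock-in it was at 47.4 and 48.9 untreated and at 38.9 and 39.9 in the libraries labelled knock-in LPS. The 2 LPS groups lay on opposite sides of the untreated ones. The log2 change was 0.21 in wild type (limma adjusted p = 0.00576) and -0.28 in the knock-in (limma adjusted p = 4.44e-04). The wild-type call was lost without wild-type LPS replicate 1 (limma adjusted p = 0.106) and by quantile scaling (0.204), with adjusted p from 0.0013 to 0.204 across the alternatives. Lpcat3 shares 38 exonic bases with Emg1 on the opposite strand.

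Counted over the 10 genes, LPS in wild type raised 5 (Nr1h2, Nr1h3, Abca1, Lpcat3 and Pltp) and lowered 3 (Abcg1, Mylip and Pparg), where 57.6% of all genes tested were called, 26.8% higher and 30.7% lower. The 2 groups did not overlap for any of the 10 genes, as for 76.1% of all genes. Of all wild-type calls 46.6% were higher, 35.4% after quantile normalization and 51.6% by edgeR. Over the alternatives 2 (quantile normalization) to 7 (edgeR and DESeq2) of the 10 genes were higher. The median log2 change of the 10 was 0.18, and that of all genes tested -0.032. In the libraries labelled knock-in LPS against the untreated knock-in, 2 of the 10 were higher (Nr1h3 and Apoe) and 6 lower (Abca1, Abcg1, Abca9, Pltp, Lpcat3 and Pparg), where 56.7% of all genes were called, 28.5% higher and 28.3% lower. The groups did not overlap for 9 of the 10, as for 79.2% of all genes. The median was -0.31, against 0.016 over all genes tested.

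**Figure D2:**
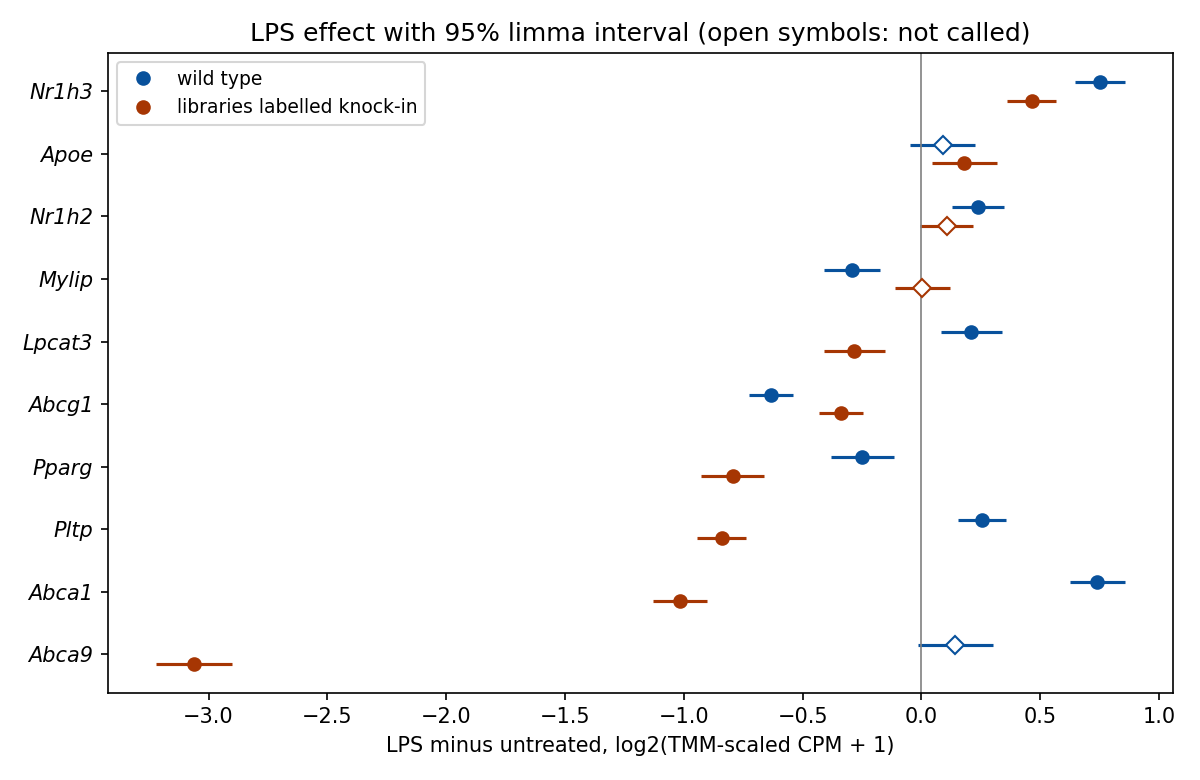
LPS effect of each gene (x axis, log2(TMM-scaled CPM + 1), LPS minus untreated; y axis, gene) in wild type (blue) and in the libraries labelled knock-in (brown), with 95% limma intervals; filled circles passed the test and open diamonds did not. Abca1 lies at 0.74 (wild type) and -1.02 (knock-in), and Abca9 at 0.14 and -3.06.

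The difference between the LPS effects was tested as an interaction, knock-in minus wild type. It passed for 8 of the 10 genes, 2 higher and 6 lower, where 63.7% of all genes tested were called, 31.8% higher and 31.8% lower. For 9 of the 10 genes the LPS differences of the 2 genotypes did not overlap, as for 73.3% of all genes. Abca9 (-3.20, SE 0.108, limma adjusted p = 6.58e-18), Abca1 (-1.76, SE 0.0785, limma adjusted p = 1.54e-15) and Pltp (-1.10, SE 0.0700, limma adjusted p = 1.78e-12) had the largest differences of the 10. Pparg (-0.55), Lpcat3 (-0.49) and Nr1h3 (-0.29) were also lower, and Abcg1 (0.29) and Mylip (0.30) higher, with limma adjusted p at most 0.00249. After quantile normalization the difference was -0.054 for Nr1h3 (limma adjusted p = 0.511), and 0.73 for Abcg1, 0.51 for Mylip and -0.63 for Pltp, all 3 still called. For Apoe the interval of the difference ran from -0.10 to 0.28, and for Nr1h2 from -0.29 to 0.025, the latter called lower by edgeR on recovered reads (-0.18, adjusted p = 0.0437).

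With LPS, the libraries labelled knock-in were compared directly with wild type. Of the 10 genes 6 were lower (Abca9, Abca1, Pltp, Pparg, Lpcat3 and Nr1h3) and 3 higher (Apoe, Abcg1 and Mylip), where 75.4% of all genes tested were called, 38.5% higher and 36.8% lower. The groups did not overlap for 9 of the 10, against 87.4% of all genes. Abca9 was 12.3-fold lower by means, Abca1 3.72-fold, Pltp 1.94-fold, Pparg 1.62-fold and Lpcat3 1.35-fold. Nr1h3 was 1.15-fold lower (-0.20, limma adjusted p = 0.00108), but 0.036 higher on the log2 scale after quantile normalization (limma adjusted p = 0.516). Mylip was 1.29-fold and Abcg1 1.17-fold higher, and Apoe was higher by 0.22 on the log2 scale. The Apoe call was lost without wild-type LPS replicate 1 (limma adjusted p = 0.0918) and without the filter (0.167), and its difference was 0 after quantile normalization. That scaling gives a gene of equal rank in each library the same value, so the 0 for Apoe need not mean equal levels. Nr1h2 differed by 0.0071 (95% interval -0.10 to 0.12, limma adjusted p = 0.911), but was called higher after quantile normalization (0.20, limma adjusted p = 0.00201). The same scaling gave 0.63 for Abcg1, 0.58 for Mylip and -0.50 for Pltp, which remained called.

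Without LPS, limma called 0 of the 10 genes between genotypes, where 0.00839% of all genes tested were called. At an unadjusted p under 0.05 there were 4 (Pltp, Nr1h2, Abca1 and Pparg), as were 13.6% of all genes tested. On recovered reads edgeR and DESeq2 called 0, though DESeq2 gave no adjusted p for 2 of the 10 genes. The differences, knock-in minus wild type, ran from -0.14 (Pparg) to 0.14 (Pltp) on the log2 scale, with limma adjusted p from 0.234 to 0.621. The 2 libraries of each genotype did not overlap for any of the 10 genes, which held for 43.9% of all genes tested. Without untreated wild-type replicate 1, Pltp (0.20, limma adjusted p = 0.0341) and Pparg (-0.24, limma adjusted p = 0.0456) were called, along with 263 higher and 220 lower genes in the whole table. Fitted with only the libraries of the 2 groups compared, which leaves out those labelled knock-in LPS, wild-type LPS again gave 5 higher and 3 lower and the untreated genotypes 0.

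The unequal moves of related genes were also read within each library, where scaling between libraries has no part. These ratios are not corrected for gene length, so they are compared only across groups. The ratio of Abca1 to Abcg1 was 1.60 and 1.67 in untreated wild type, 4.53 and 3.97 in wild type with LPS, 1.62 and 1.52 in the untreated knock-in, and 0.970 and 0.988 in the libraries labelled knock-in LPS. The untreated groups overlapped, and the 2 LPS groups lay on either side of them. The ratio of Nr1h3 to Nr1h2 was 1.26 and 1.27 in untreated wild type, 1.77 and 1.86 with LPS, 1.24 and 1.21 in the untreated knock-in, and 1.60 and 1.54 in the libraries labelled knock-in LPS. Here both LPS groups were above the untreated ones.

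**Figure D3:**
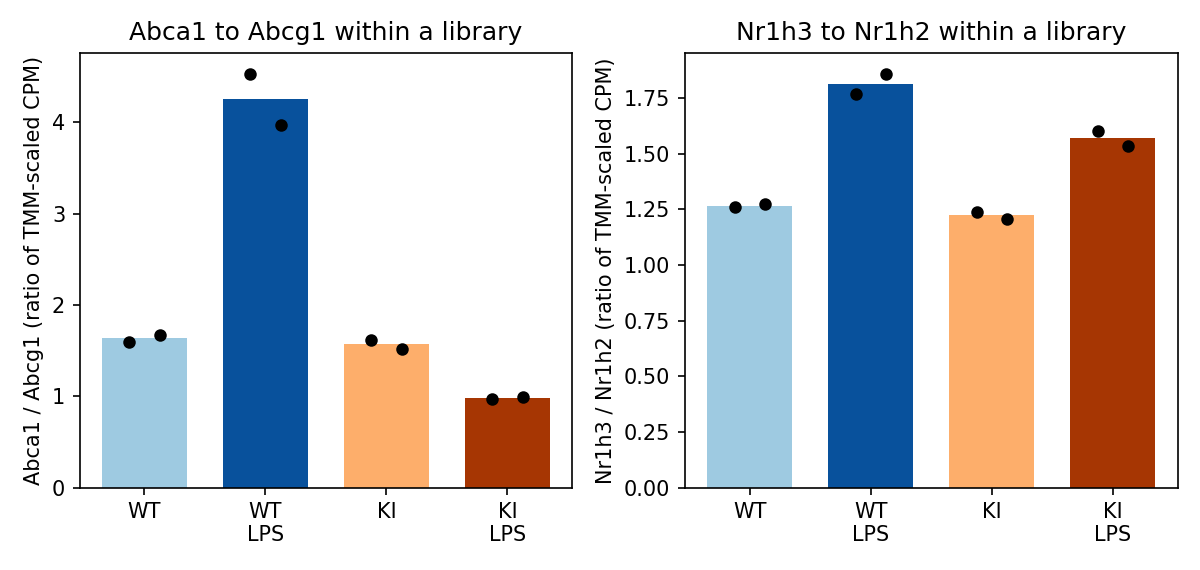
Ratio of Abca1 to Abcg1 (left) and of Nr1h3 to Nr1h2 (right) within each library (y axes, ratio of TMM-scaled CPM, starting at 0); bars are group means and points the 2 libraries. The mean Abca1 to Abcg1 ratio is 4.25 in wild type with LPS and 0.979 in the libraries labelled knock-in LPS, against 1.64 and 1.57 untreated.

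Partners of these receptors moved too. Rxra and Rxrb encode retinoid X receptors, with which LXRs and PPARs pair. Rxra was at 98.7 and 95.8 in untreated wild type, 71.2 and 65.6 with LPS, 104 and 109 in the untreated knock-in, and 121 and 121 in the libraries labelled knock-in LPS. It fell in wild type (-0.50, limma adjusted p = 1.65e-08) and rose in the knock-in (0.19, limma adjusted p = 0.00517). Rxrb did the same, at -0.39 (limma adjusted p = 1.12e-05) and 0.40 (limma adjusted p = 1.10e-05). Of 16 tested partners and coregulators, 2 rose and 7 fell in wild type, with Ppard (0.66), which encodes PPAR delta, and the coactivator gene Ncoa3 (-0.60) among them, and 6 rose and 2 fell in the knock-in, such as Med1 (0.32), a Mediator subunit. Their medians were -0.092 and 0.12. For this list and those below, the shares of all genes tested that were called were 26.8% higher and 30.7% lower in wild type. In the knock-in they were 28.5% and 28.3%. None of the further lists had a gene called between the untreated genotypes.

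Of 23 further LXR target genes, 18 were tested. In wild type, where 57.6% of all genes tested were called, they were split, with 4 higher and 6 lower (median -0.031). The increases included Tgm2 (1.93), a transglutaminase gene, and Srebf1 (0.41), the sterol regulatory factor through which LXR drives fatty acid synthesis, and the decreases Scd2 (-0.59), a fatty acid desaturase gene. In the libraries labelled knock-in LPS 5 were higher and 10 lower (median -0.32), where 56.7% of all genes tested were called. Scd2 fell by 2.18 and Tgm2 rose by 1.54 there, and Vegfa (1.58) and the apolipoprotein gene Apoc2 (1.39) were also higher. With LPS, 5 of the 18 were higher and 10 lower in the knock-in libraries than in wild type, where 75.4% of all genes tested were called. Among the lower were Lpl, the lipoprotein lipase gene (-1.45, 6903 against 2529), and Cd5l, a secreted macrophage protein gene (-1.29, 1037 against 424). Apoc2 was higher (1.79, 7.99 against 30.0) and had the largest change of those named.

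Among 13 tested genes of cholesterol uptake and storage, 4 rose and 4 fell in wild type (Lcat, 1 of the 4, passed the filter only through that group), and 3 rose and 7 fell in the knock-in. Msr1, a scavenger receptor gene, rose by 0.64 in wild type. Cd36, another scavenger receptor gene, fell in the knock-in (-0.83, 3973 to 2233), as did Stard4, a sterol transport gene (-1.04), while the cholesterol esterification gene Soat2 rose (0.95). Of 9 tested PPAR target genes, 1 rose and 3 fell in wild type, and 3 rose and 4 fell in the knock-in. Fabp4, a fatty acid binding protein gene, rose in both (1.11 and 0.60), and Plin2, which coats lipid droplets, had opposite changes, -0.23 and 0.72.

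Of 5 tested oxysterol and bile acid enzymes, 1 rose and 1 fell in wild type, and 1 rose and 2 fell in the knock-in. Cyp27a1, which makes 27-hydroxycholesterol, fell by 0.29 in wild type and by 0.97 in the knock-in. The 1 that rose in wild type was Ch25h, which makes 25-hydroxycholesterol and was chosen after its values were seen. It was at 0.186 and 0.255 in untreated wild type, 2.61 and 2.60 with LPS and at most 0.0771 in the 4 knock-in libraries, and it passed the filter only through the group where it is high, so its call is no support. Of 8 tested other ABCA and ABCG transporters, 1 rose and 0 fell in wild type (median 0.084), and 0 rose and 6 fell in the knock-in (median -0.52). The 1 that rose, Abca13, passed the filter only through wild type with LPS (2.21 and 1.72), so its call is no support. Abcg3 (-1.29), Abca2 (-0.80), Abcg2 (-0.55) and Abca7 (-0.54) were the largest named decreases. Of 6 tested other lysophospholipid acyltransferase genes, 2 rose in wild type, Lpcat1 (1.14) and Lpcat2 (0.52). In the knock-in Lpcat2 rose (0.53) while Lpcat1 (-0.28) and Agpat3 (-0.50) fell, with 1 rising and 3 falling in all. The medians of all genes tested were -0.032 and 0.016, and 57.6% and 56.7% of them were called. Quantile normalization moved the wild-type counts most, to 2 higher and 10 lower of the receptor partners, 3 and 9 of the further LXR targets, 5 and 7 of the uptake and storage genes and 1 and 7 of the PPAR targets. Of all 11919 genes tested, 2539 were higher and 4640 lower in wild type under that scaling.

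**Figure D4:**
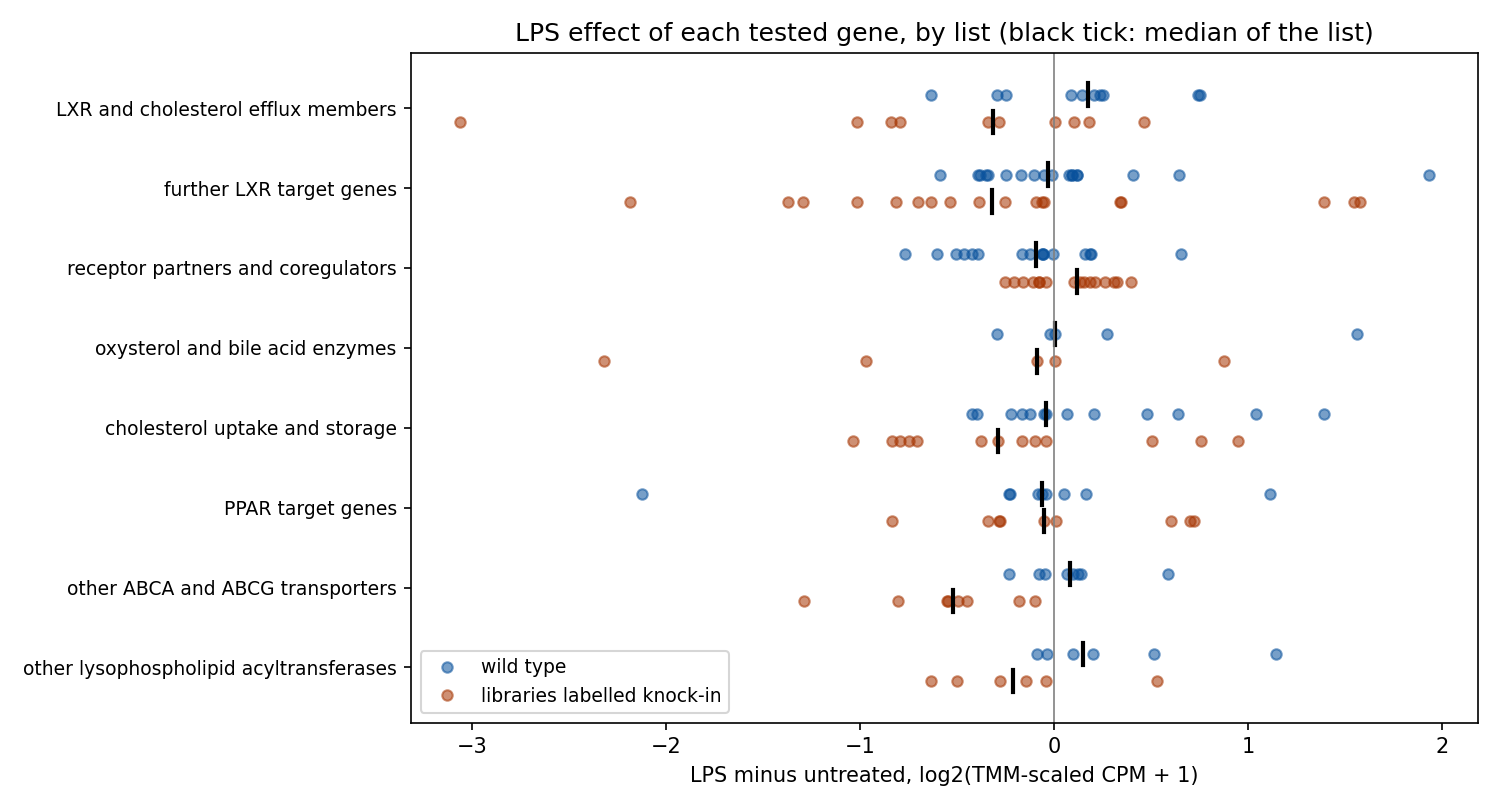
LPS effect of every tested gene of 8 lists (x axis, log2(TMM-scaled CPM + 1), LPS minus untreated; y axis, list) in wild type (blue) and in the libraries labelled knock-in (brown); points are genes and black ticks the list medians. The other ABCA and ABCG transporters have medians of 0.084 (wild type) and -0.52 (knock-in), and the 10 genes described here 0.18 and -0.31.

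The genes with the most similar profiles over the 8 libraries were ranked by the root mean square difference of log2 levels centred on each gene's own mean, among 9252 named genes with a mean of at least 5. For Abca1 they were Atp13a3 (0.091), Idi1 (0.099) and Myadm (0.11), where Abca1 itself varied by 0.68 around its mean. Idi1, an enzyme gene of sterol synthesis, went from 26.6 and 28.3 to 45.0 and 48.0 in wild type and from 25.5 and 21.9 to 12.1 and 10.1 in the knock-in. Closest to Abca9 were Itgax (0.14), which encodes the integrin CD11c, Mamdc2 (0.14) and Stmn1 (0.21), against a spread of 1.39 for Abca9. Itgax was at 33.9 to 47.1 in 6 libraries and at 4.65 and 4.04 in the libraries labelled knock-in LPS. Abcg1 was followed most closely by Fam76b (0.040), Mbp (0.045) and Tcp11l2 (0.046), Nr1h3 by Sertad1 (0.050) and Rnf149 (0.053), and Pparg by Incenp (0.059), Chek2 (0.060) and Phactr2 (0.062). The 8 libraries fall into 4 groups, so these values describe shared group differences.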

How the data were processed

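RNA-seq of 8 libraries, 2 in each of 4 groups, was analysed from 1 deposited table of 23366 genes. The submitters' processing notes name mouse build mm9 and the tools edgeR, bedtools and TopHat2 2.0.9. No source used here gives the counting rule or its strand setting. The deposited values are a signal in TMM-scaled CPM form. In each library they are whole multiples of the smallest value, so whole reads were recovered for 100% of values (within 0.001 of a whole number), giving 40379258 to 55595160 reads. Groups and replicate numbers came from the labels.

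Genes with a value of at least 1 in at least 2 libraries (11919) were tested with limma 3.58.1 (R 4.3.3, eBayes with trend) on log2(value + 1), in 1 model of 4 group means with 4 residual and 19.1 prior degrees of freedom. P-values are two-sided and Benjamini-Hochberg adjusted over all genes tested, within each of 5 comparisons. The code was tested on simulated data. Alternatives were a pseudocount of 0.25, no filter, a filter at 5, median-of-ratios scaling, quantile normalization, edgeR 4.0.16 and DESeq2 1.42.0 on recovered reads, a replicate block, only the 2 groups compared, and leaving out each library. The lists were run under the scalings only, a step added after seeing the data. Libraries of 1 group differed by more than sampling noise, so none was a copy.

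The 10 genes were named throughout. Of every other list (receptor partners, further LXR targets, oxysterol enzymes, uptake and storage, PPAR targets, other ABCA and ABCG transporters, other lysophospholipid acyltransferases), up to 4 genes were named, those with the largest called change whose groups do not overlap and whose higher mean is at least 5, and Rxra and Rxrb always. Some genes that this rule names are not reported here. LPS and interferon response genes, sex-linked transcripts and markers of macrophage, stromal, adipocyte, neutrophil, dendritic, B and T, erythroid and megakaryocyte cells were used as checks. The genes and lists were chosen with earlier results of these data known. Promoter windows are RefSeq's on GRCm38.p6 and were not placed on mm9.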

Additional observations from a re-analysis of the deposited data

Results flagged for a closer look

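For 8 of the 10 genes the LPS effect differed between genotypes by the limma interaction test, given here on the log2 scale as knock-in effect minus wild-type effect. The lower ones were Abca9 (-3.20), Abca1 (-1.76), Pltp (-1.10), Pparg (-0.55), Lpcat3 (-0.49) and Nr1h3 (-0.29), and the higher ones Mylip (0.30) and Abcg1 (0.29). The same test called 63.7% of all genes. All 8 values rest on the libraries labelled knock-in LPS, in which Xist was at most 0.366 and Ddx3y at least 27.3, so sex and the treated knock-in group cannot be told apart and no value within one sex could be had.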

How the results depend on the processing

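Of 838 values of single genes under the alternatives, 804 kept their direction and side of the threshold, 13 lost the call, 9 gained it and 12 turned direction. Many of the 804 could not turn. The filters, the replicate block, the fit of only the 2 groups and leaving out a library of another group cannot alter a log2 change between 2 groups. Quantile normalization turned Pltp in wild type (-0.24), Mylip in the knock-in (-0.050), Apoe between untreated genotypes (-0.051), Nr1h3 between genotypes with LPS (0.036) and Nr1h2 in the interaction (0.049), and left 2 genes higher in wild type (7 by edgeR and DESeq2). Mylip in the knock-in was -0.0061 by edgeR and -0.033 to 0.041 over the left-out libraries (lowest without knock-in LPS replicate 2). Nr1h2 between genotypes with LPS was 0.20 after quantile normalization (called), -0.022 with median-of-ratios scaling, -0.035 by edgeR, -0.020 by DESeq2, and -0.017 to 0.031 over the left-out libraries, with -0.017 without knock-in LPS replicate 2 and -0.0057 without wild-type LPS replicate 1. In the knock-in, 1 gene was higher with no filter or quantile normalization, and 1 to 2 when a library was left out. Between untreated genotypes, 1 gene of the whole table was higher and 0 lower, against 0 higher with no filter, 32 higher and 39 lower by DESeq2, and 5 higher and 7 lower with only those groups. Leaving out a library gave 1 to 263 higher and 0 to 220 lower, and 0 to 1 of the 10 genes each way. The cause was not tested.

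The deviations of same-numbered libraries correlated at r = -0.10 to 0.13 over the 6 pairs of groups (wild type -0.095, knock-in 0.12), not above 0.1 in every pair, so they were taken to share only a number. With the replicate block, 5 of the 10 genes were higher and 3 lower in wild type and 2 higher and 6 lower in the knock-in, as without it. DESeq2 gave no adjusted p for 2 values, both between the untreated genotypes.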
